A study of Mus musculus with 8 samples.

Results

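The regions described here were on the deposited ATAC-seq list of Hepa-1c1c7 cells treated with 0.1 µM potassium chromate. They shared no base with any region of the 0.5 µM or 1 µM list. They were chosen by merging the regions of the 3 lists that share at least 1 bp, keeping the merged regions made of 0.1 µM regions alone, and leaving out chromosome 15. Of 17890 merged regions off chromosome 15 (21051 with it), 2599 met the rule, or 14.5%, and each was 1 region of the 0.1 µM list. They made up 20.8% (exact binomial 95% interval 20.1 to 21.5) of the 12518 regions of that list off chromosome 15. Presence in the lists chose the members, so their number, score and width are a description. Location against genes and promoter sequence were not used in the choice.

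Hepa-1c1c7 is an established mouse hepatoma line, grown here with potassium chromate, a hexavalent chromium salt, for 72 h at 0 (control), 0.1, 0.5 or 1 µM. Each dose had 2 libraries, 8 in all, and no label says whether they came from separate cultures. One list was deposited per treated dose, named together with the control, so a value has no spread between libraries, no difference between doses was tested, and intervals cover counting error only. The depth of the libraries is unknown here. The 3 lists share the control libraries, and the 1 µM libraries carry another label prefix (N503) than the rest (N502), which cannot be told apart from that dose.

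In ATAC-seq, the Tn5 transposase cuts DNA that is not wrapped in nucleosomes and leaves sequencing adapters there, so that cuts gather at promoters, enhancers and insulator sites. Promoters of widely expressed genes are often rich in CpG and stay free of nucleosomes at the transcription start, whereas regions far from genes and inside long genes are more often enhancers used in some cell types only. Chromate enters cells by anion transporters and is reduced inside to trivalent chromium, which binds DNA. The study's title concerns CTCF sites in promoters. CTCF is a zinc finger protein that binds insulators and holds chromatin loops.

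Promoter sequences that members covered show what kind of start site was involved. RefSeq promoters of GRCm38.p6, the assembly of mm10, run from 250 bases before to 50 after a start. The first 5 below belong to the members with the highest score that overlapped a protein-coding promoter by at least 150 bp. Capitals mark matches, on either strand, to GGGCGG for the GC box, to CCAAT for the CCAAT box, to CCGGAAG for the ETS site, to CACGTG for the E-box, to TATAAA for the TATA box, to TGANTCA for the AP-1 element, to TGACGTCA for the CRE, and to the CTCF core consensus. The Zfp93 promoter (chr7:24270168-24270467, + strand) had none of them. That of Htatip2 (chr7:49759262-49759561, + strand) held 1 AP-1 element and 1 CCAAT box. The St7l promoter (chr3:104864256-104864555, + strand) held a GC box that runs into an ETS site. The Bag1 promoter (chr4:40948245-40948544, - strand) held 5 GC boxes and 1 ETS site, and the Rufy3 promoter (chr5:88564790-88565089, + strand) held 6 GC boxes in a sequence of 81.3% G and C.
Zfp93: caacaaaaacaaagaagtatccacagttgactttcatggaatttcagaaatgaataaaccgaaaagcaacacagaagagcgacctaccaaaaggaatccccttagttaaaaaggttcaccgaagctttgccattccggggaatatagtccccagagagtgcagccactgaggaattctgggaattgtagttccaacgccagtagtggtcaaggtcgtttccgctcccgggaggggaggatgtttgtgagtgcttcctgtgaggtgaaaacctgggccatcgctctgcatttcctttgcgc
Htatip2: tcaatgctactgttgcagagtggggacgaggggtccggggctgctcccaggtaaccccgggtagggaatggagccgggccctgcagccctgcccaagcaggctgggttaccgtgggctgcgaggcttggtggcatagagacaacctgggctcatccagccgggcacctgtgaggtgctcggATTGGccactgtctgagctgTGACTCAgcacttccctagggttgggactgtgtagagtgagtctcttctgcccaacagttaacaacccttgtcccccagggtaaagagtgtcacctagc
St7l: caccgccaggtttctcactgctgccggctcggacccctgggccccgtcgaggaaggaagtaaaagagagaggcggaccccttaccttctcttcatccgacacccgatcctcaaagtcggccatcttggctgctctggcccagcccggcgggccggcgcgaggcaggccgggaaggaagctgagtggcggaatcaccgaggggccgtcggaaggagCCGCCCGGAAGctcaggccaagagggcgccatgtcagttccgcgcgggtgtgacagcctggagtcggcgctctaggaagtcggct
Bag1: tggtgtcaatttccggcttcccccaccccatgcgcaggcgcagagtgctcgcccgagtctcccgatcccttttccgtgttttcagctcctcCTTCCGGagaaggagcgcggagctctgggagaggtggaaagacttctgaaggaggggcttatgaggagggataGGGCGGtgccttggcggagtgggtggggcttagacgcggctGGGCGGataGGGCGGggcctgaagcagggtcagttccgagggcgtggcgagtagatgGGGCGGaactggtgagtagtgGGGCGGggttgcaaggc
Rufy3: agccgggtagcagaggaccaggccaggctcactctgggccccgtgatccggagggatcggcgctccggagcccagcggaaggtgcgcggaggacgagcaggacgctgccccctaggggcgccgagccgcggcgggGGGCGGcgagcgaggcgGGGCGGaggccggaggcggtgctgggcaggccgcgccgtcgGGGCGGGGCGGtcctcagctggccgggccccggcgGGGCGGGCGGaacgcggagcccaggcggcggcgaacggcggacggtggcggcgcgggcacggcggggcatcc

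Another 2 promoters are shown because, of the members that overlapped a promoter, theirs lay farthest from any region of another dose. That of Fos is shown because it was the listed gene with the most members at its ends. The Thoc2 promoter (chrX:41911852-41912151, - strand) held 2 GC boxes and the Grk4 promoter (chr5:34660129-34660428, + strand) held 1. The Fos promoter (chr12:85473640-85473939, + strand) held 1 GC box and 1 TATA box.
Thoc2: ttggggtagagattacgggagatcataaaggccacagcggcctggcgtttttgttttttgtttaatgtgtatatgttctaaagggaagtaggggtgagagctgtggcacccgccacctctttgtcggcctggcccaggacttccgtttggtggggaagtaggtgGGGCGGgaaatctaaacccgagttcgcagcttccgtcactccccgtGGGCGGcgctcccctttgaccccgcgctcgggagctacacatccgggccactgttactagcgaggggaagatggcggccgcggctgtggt
Grk4: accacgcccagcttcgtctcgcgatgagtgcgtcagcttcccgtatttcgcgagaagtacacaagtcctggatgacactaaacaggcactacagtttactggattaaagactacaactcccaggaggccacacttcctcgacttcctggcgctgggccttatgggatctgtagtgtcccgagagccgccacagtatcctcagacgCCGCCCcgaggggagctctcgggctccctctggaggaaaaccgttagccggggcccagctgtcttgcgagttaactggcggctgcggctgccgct
Fos: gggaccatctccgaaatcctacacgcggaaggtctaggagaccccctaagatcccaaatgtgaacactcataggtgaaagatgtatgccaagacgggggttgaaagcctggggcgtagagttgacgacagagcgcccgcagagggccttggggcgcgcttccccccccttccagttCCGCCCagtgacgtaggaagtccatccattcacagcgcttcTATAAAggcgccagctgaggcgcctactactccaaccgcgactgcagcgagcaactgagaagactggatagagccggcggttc

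The members were mostly narrow regions of low score. The score is the authors' own whole number per region, of at least 4, whose scale they do not state. It was used to rank members within the 0.1 µM list. Members had a median score of 7 (quartiles 6 and 10, highest 38), while the 0.1 µM list off chromosome 15 had a median of 11 and a highest score of 281. Their median width was 240 bp (quartiles 206 and 290.5, widest 743) against 340 bp in the whole list. Regions listed only at 0.5 µM (1346 regions) and only at 1 µM (3342 regions) had median scores of 7 and 9 and median widths of 239 and 254 bp.

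Weak regions of the list were more often unique to it. Of the 0.1 µM regions with a score of 4 to 5, 45.7% (43.0 to 48.5) were members, as were 29.7% of those with 8 to 10, 7.23% with 16 to 20 and 1.75% with 21 to 30. A score over 30 was found in 1660 regions, and 1 of these was a member. By width, members were 56.2% (52.9 to 59.5) of the 900 regions at the list's narrowest width of 199 bp and 1.02% (0.695 to 1.45) of the 3034 regions over 500 bp. Score and width come from the data that chose the members and were given no test.

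**Figure D1:**
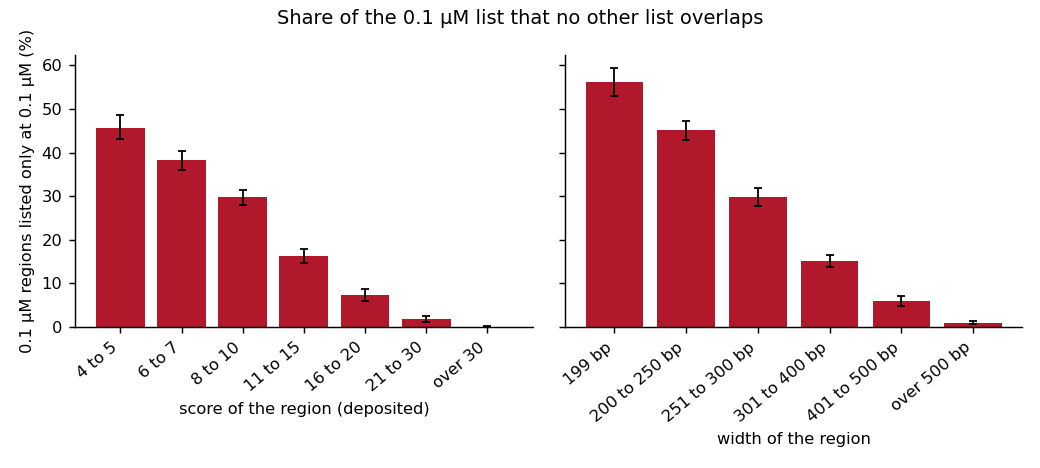
The bars give the percentage of 0.1 µM regions off chromosome 15 that were listed only at 0.1 µM, by deposited score (left) and by width (right), with exact binomial 95% intervals (counting error only). The share falls from 45.7% at scores of 4 to 5 to 1.75% at 21 to 30, and from 56.2% at 199 bp to 1.02% over 500 bp.

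The rule's limit of 1 bp separated regions with like scores. The member nearest to another dose, inside 1700001L19Rik (chr13:68602995-68603338, score 16), touched a 1 µM region without sharing a base. Members at an end of Eri3 (score 6) and Nae1 (score 7) lay 2 and 5 bp from one. Just outside the rule, 0.1 µM regions at an end of Rpia (score 11) and inside Anxa1 (score 6) shared at most 2 and 3 bp with a region of another dose.

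Members lay between genes more often, and at gene ends less often, than regions of the other dose classes when all widths were counted. Of the 2599 members, 47.9% (46.0 to 49.8) had their midpoint between protein-coding genes, 34.9% (33.1 to 36.8) inside one and 17.2% (15.7 to 18.7) at a gene end, which means no more than 1 kb from the start or the end of such a gene. Gene ends held 28.8% (26.3 to 31.3) of the regions listed only at 0.5 µM, 24.3% (22.9 to 25.8) of those only at 1 µM and 39.1% (37.9 to 40.3) of those at all 3 doses. The share between genes was 36.3%, 38.7% and 31.8% in the same order. These intervals are apart, but they are no test of dose, and the difference from regions of all 3 doses was not present at equal width in the 2 width ranges that could be compared.

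**Figure D2:**
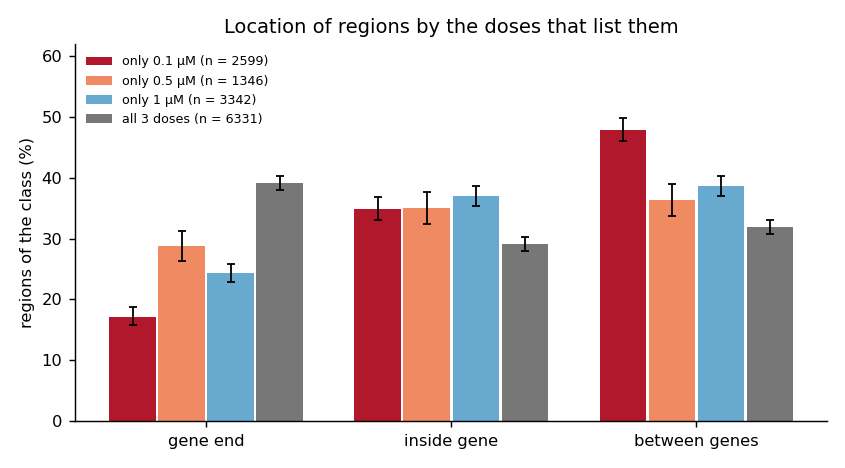
Bars give the percentage of regions off chromosome 15 at gene ends, inside and between protein-coding genes, for regions listed only at 1 dose and at all 3 doses, and error bars are exact binomial 95% intervals. Regions listed only at 0.1 µM have the lowest bar at gene ends (17.2%) and the highest between genes (47.9%) among these 4 classes.

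The members' share at gene ends was below that of both other single-dose classes at each of 4 widths up to 400 bp and 5 score ranges up to 20, though not always with intervals apart. Among regions of 200 to 250 bp, gene ends held 15.8% (13.6 to 18.3) of the members, 27.8% (24.0 to 31.9) of the regions only at 0.5 µM and 23.2% (20.9 to 25.7) of those only at 1 µM. At 301 to 400 bp the shares were 21.2%, 30.3% and 25.4%, with intervals of 17.4 to 25.4 for members and 22.2 to 28.8 at 1 µM, which overlap. Regions at all 3 doses, whose widths are those of merged regions, had 8.54% (3.50 to 16.8, 82 regions) at gene ends at 251 to 300 bp, below the 15.5% of the members, and 21.3% (18.6 to 24.3) at 301 to 400 bp, level with the members. At scores of 4 to 5 the shares of the single-dose classes were 19.6% (16.5 to 23.0), 23.0% (18.5 to 28.1) and 27.5% (24.2 to 30.9), and at 8 to 10 they were 17.3%, 31.3% and 25.4%. Regions at all 3 doses with a highest score of 8 to 10 had 38.5% (33.1 to 44.2) at gene ends. At scores of 16 to 20 the members' share of 17.4% (10.3 to 26.7, 92 regions) and the 20.5% (15.2 to 26.6) at 1 µM had overlapping intervals.

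Many members stood alone. The median gap to the nearest region of the 0.5 or 1 µM list was 24160 bp (quartiles 3939.5 and 83695 bp). Only 67 members (2.58%) lay within 100 bp of such a region, and 414 (15.9%, 14.5 to 17.4) within 1 kb, while 554 were more than 100000 bp and 28 more than 1000000 bp away. The nearest neighbour of the 414 close members was listed at all 3 doses in 211 cases, only at 1 µM in 83, at 0.1 and 1 µM in 74 and only at 0.5 µM in 30. The median gap of regions listed only at 0.5 µM was 15200 bp and of those only at 1 µM 18133 bp. Each gap is measured to the other 2 lists, which held 12518, 9437 and 13777 regions off chromosome 15 in order of dose, so gaps of different doses are not on an equal footing.

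Members at gene ends lay either close to a region of another dose or far from one. Of the 446, 153 (34.3%, 29.9 to 38.9) lay within 1 kb of such a region and 252 beyond 10 kb. Of the 908 members inside genes 15.9% lay within 1 kb of another dose, and of the 1245 between genes 9.40%. Among members within 1 kb of another dose, 37.0% (32.3 to 41.8) were at gene ends, against 33.7% (28.0 to 39.8) of such regions only at 0.5 µM and 35.1% (31.2 to 39.1) only at 1 µM. Among the 2185 members beyond 1 kb the share was 13.4% (12 to 14.9), against 27.5% (24.9 to 30.3) only at 0.5 µM and 22.1% (20.5 to 23.7) only at 1 µM. The intervals of the 3 doses overlapped for close regions, and those of the members lay below both others for isolated ones.

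**Figure D3:**
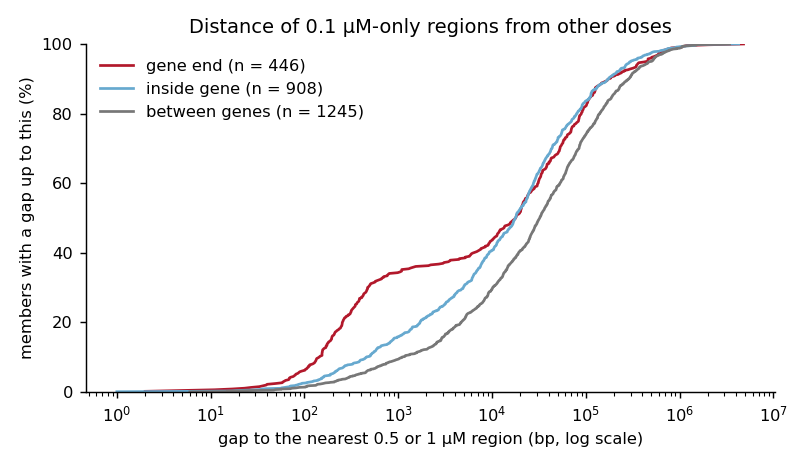
Curves give the cumulative percentage of members at gene ends, inside genes and between genes whose gap to the nearest 0.5 or 1 µM region is at most the value on the x axis (bp, log scale, a gap of 0 drawn at 1). The gene end curve reaches 34.3% at 1 kb and 43.5% at 10 kb, while the curve inside genes goes from 15.9% to 40.7% and that between genes from 9.40% to 29.5%.

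The position around transcription starts could be read for 2489 members, since the promoter table held no start on chromosome 18. Of these, 445 (17.9%, 16.4 to 19.4) had their midpoint within 1 kb of a start in that table, of a coding or non-coding gene. Of the 439 gene end members on those chromosomes, 76.1% (71.8 to 80.0) were near a start, as were 78.9% (74.5 to 83.0) of those only at 0.5 µM, 80.6% (77.6 to 83.3) only at 1 µM and 84.4% (82.8 to 85.8) at all 3 doses. The promoter table also lacked the starts of some protein-coding genes. At Hgsnat, Eif4ebp1 and Cibar1 the nearest start in it was farther from the member than the whole gene is long. Gene end regions away from a listed start therefore need not lie at the far end of a gene. Such cases were not counted in any class. The midpoints of the 445 gathered at the start itself, with 99 in the 100 bp before and 76 in the 100 bp after it. A shoulder followed downstream: 109 of the 445 (24.5%, 20.6 to 28.8) lay 300 to 1000 bp after the start and 48 (10.8%, 8.06 to 14.0) as far before it.

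The downstream shoulder held most of the close members at starts. A region of another dose lay within 1 kb of 79 of the 109 downstream members (72.5%), of 28 of the 48 upstream ones (58.3%) and of 46 of the 288 within 300 bp of the start (16%). Downstream positions took 14.8% (11.4 to 18.9) of the start regions only at 0.5 µM, 16.6% (14.1 to 19.3) of those only at 1 µM and 6.45% (5.50 to 7.50) of those at all 3 doses. Members on the start were mostly apart from other doses, and those downstream mostly beside a region that another dose listed. The rule itself bears on this contrast. A region on a start was no member if a region of another dose overlapped it there, while one farther downstream could lie beside such a region.

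**Figure D4:**
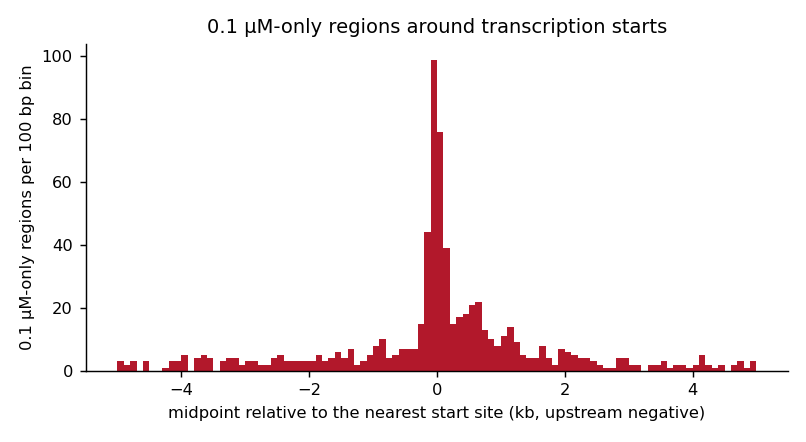
Bars give the number of members in 100 bp bins by the distance of their midpoint from the nearest RefSeq start, in kb, with positions before the start negative. The peak is at the start (99 and 76 members in the bins on either side), and the members 300 to 1000 bp downstream (109) outnumber those as far upstream (48).

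Promoters were overlapped by 274 members, or 11% of the members on chromosomes with promoters. Regions only at 0.5 µM, only at 1 µM and at all 3 doses overlapped one in 20.9%, 18.7% and 38.5% of cases. The members covered 331 of 31683 promoters, or 1.04%, belonging to 304 genes. Starts of different genes on opposite strands lay under 28 of the 274 members (10.2%), and under 11.5%, 13.4% and 20.5% of the promoter regions only at 0.5 µM, only at 1 µM and at all 3 doses. Regions at all 3 doses were wider, with a median of 586 bp against 240 bp for members. A wider region can reach more promoters, and neither share was compared at equal width. The covered promoters had a median of 62% G and C and 22 CpG, against 53% and 7 over all promoters and 61.7% and 22 at all 3 doses.

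The GC box and the ETS site were more frequent, and the TATA box less, in covered promoters than in all promoters. Of 11 motifs searched on both strands, some overlap in their letters, and a match describes the window only. The 331 promoters lay under 274 members, and some of them overlap or have the same sequence. The intervals treat each promoter as independent and may be too narrow. The GC box was found in 64.4% (58.9 to 69.5) of the 331 promoters, in 35.9% of all promoters and in 68.3% of those at all 3 doses. The ETS site stood in 19.3% (15.2 to 24.0), 8.94% and 22.0%. The TATA box stood in 5.74% (3.49 to 8.82), 13.7% and 4.99%. The CCAAT box, bound by NF-Y, stood in 36.0% (30.8 to 41.4), 37.6% and 46.9% (45.1 to 48.6), and it was the only one of the 11 whose interval in members left out the value at all 3 doses. In promoters of regions only at 0.5 µM it stood in 47.9%, and in those only at 1 µM in 38.6%. The CTCF core consensus was found in 3 of the 331 promoters (0.906%, 0.187 to 2.63), against 0.565% of all and 0.767% at all 3 doses.

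Motifs of stress responses were searched with GCGTG for the xenobiotic response element core, with TGCNCNC for the metal response element, bound by MTF1, and with TGACNNNGC for the antioxidant response element core, bound by NRF2. They stood in 50.5%, 59.8% and 15.7% of the covered promoters, in 32.6%, 51.3% and 12.4% of all promoters and in 55.2%, 58.9% and 16.6% of those at all 3 doses. The AP-1 element stood in 5.74% against 7.85% and 5.40%, the E-box in 10.3% against 7.21% and 9.94%, and the CRE in 3.63% against 1.81% and 4.51%. For each of these 6 motifs the members' 95% interval held the value at all 3 doses.

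Counted by gene, 510 of 20855 protein-coding genes off chromosome 15, or 2.45%, had any base of a member within 1 kb of an end. In 313 of the 510 (61.4%) no region of another dose lay at either end, which is 1.5% of all genes. The other 197 genes also had a region of another dose at an end.

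Among the members of highest score at gene ends were several that lay between neighbouring genes. This was seen at Capza1 and St7l, at Bag1 and Chmp5, and at Zdhhc16 and Exosc1. One of 485 bp (score 19) lay at the start of Htatip2 (chr7:49759047-49759531), an oxidoreductase gene described as a metastasis suppressor. One of 341 bp (score 19) lay between Capza1, a subunit of the actin capping protein, and St7l (chr3:104864275-104864615), 69.4 kb from any region of another dose. A member of 460 bp (score 18) lay at the facing ends of Bag1, a cochaperone of Hsp70, and Chmp5, a part of the ESCRT-III complex (chr4:40948142-40948601), with the next region of another dose 93.8 kb away. A member of 367 bp (score 18) lay between Exosc1, a subunit of the RNA exosome, and Zdhhc16, a palmitoyltransferase (chr19:41933256-41933622).

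Other high members at gene ends lay at Rufy3 (score 18), which acts in neurite and lysosome transport, at Gpcpd1 (score 18), an enzyme of choline phospholipid breakdown, at Ccdc71l (score 17) and at Sh3bgrl2 (score 17). The Ccdc71l member was 359.7 kb from another dose. Svbp, a partner of the vasohibins that remove tyrosine from tubulin, had a member of 629 bp (score 16). None of these 5 genes had a region of another dose within 1 kb of an end. In contrast, Ube2e3 (score 19), a ubiquitin conjugating enzyme, also had regions of scores 22 and 29 at 0.5 and 1 µM at an end, Mbtps2 (score 17), the site-2 protease that activates SREBP, had 12 and 20, and Tmem100 (score 18) had 15 at 0.5 µM alone.

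The most isolated member of all covered the start of Thoc2 (chrX:41911853-41912077, score 11), a subunit of the THO complex in mRNA export, 4.80 Mb from the nearest region of another dose. At chr5:34660091-34660442 a member (score 15) between Grk4, a kinase of G protein-coupled receptors, and Nop14, a ribosome biogenesis factor, was 2.05 Mb away. Other isolated members lay inside Ctnna2 (4.26 Mb, score 5), an alpha catenin of neurons, and near Reg3g (3.41 Mb, score 8). Further ones lay near Tmem47 (2.68 Mb, score 18) and inside Lsamp (1.62 Mb, score 17), a neural adhesion gene.

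Of the 15 members with the highest score, 9 lay between genes, 6 inside genes and 0 at gene ends, where 17.2% of all members lay. A set of 15 is small, and this difference was not tested. Members with scores of 16 to 20 had 17.4% (10.3 to 26.7) at gene ends. The highest (score 38) was at chr5:148464449-148464830, 39.99 kb from Ubl3, a gene of a ubiquitin-like protein, and 13.2 kb from a region of another dose. Next came members inside Eda2r (chrX:97372916-97373224, score 29), a receptor of the TNF receptor family, Cep128 (chr12:91305748-91306153, score 28), a centriole protein, and Eya4 (chr10:23203901-23204297, score 28), a transcriptional coactivator and phosphatase. Dock1 (score 26), an activator of the GTPase Rac, Pcdh9 (score 24), a protocadherin, and Nr2f2 (score 23), the nuclear receptor COUP-TFII, held others. Paox, which oxidises polyamines, and Plekhg6 held members of score 22.

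Members of score 23 between genes were nearest to Otol1 (778.6 kb), Isx (37.4 kb), an intestinal homeobox gene, BC030500 (274.1 kb), Sox5 (186.2 kb), a transcription factor gene of cartilage and neurons, and Gm14410 (71.5 kb). The member near Otol1 overlapped the start of the non-coding gene model Gm6634. Those of score 22 were nearest to Pcdh19 (3.11 kb), a protocadherin gene, Tmeff2 (9.96 kb) and Btbd3 (215.6 kb).

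The 10 widest members had scores of 6 to 16, against a median of 7 over all members. They were a member of 743 bp between genes near Kl, the klotho gene (score 11), and others inside Hdac9, a class II deacetylase (724 bp, score 11), Gm33153 (670 bp, score 8), Dpy30, a subunit of histone methyltransferase complexes (641 bp, score 9), and Tshz2 (626 bp, score 15). Those at gene ends were Parp8 (658 bp, score 7), Svbp, Atp6v0b, a subunit of the proton pump of lysosomes (580 bp, score 6), and Met, the receptor of hepatocyte growth factor (chr6:17463602-17464177, 576 bp, score 15). The remaining one lay 69.0 kb from Grik1, a kainate receptor gene (596 bp, score 7). At Met no region of another dose lay within 1 kb of an end, and the nearest was 37.4 kb away. The Dpy30 member, though inside the gene by its midpoint, covered RefSeq promoters of Dpy30 and was centred 27 bp before a start.

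Members inside genes lay in longer genes by median than regions of the 3 classes compared with them. The gene that held them had a median length of 138.4 kb, against 90.6 kb for regions only at 0.5 µM, 105 kb only at 1 µM and 114.5 kb at all 3 doses. Genes over 500 kb held 145 of the 908 members inside genes (16%, 13.6 to 18.5), against 4.46% (2.78 to 6.73), 7.85% (6.41 to 9.49) and 10.3% (8.93 to 11.8). A long gene offers more sequence, so the count per gene rises with length, and that part was not separated here.

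In all, 1206 protein-coding genes held a member inside or within 1 kb, 1040 of them 1 member, 124 of them 2 and 42 of them 3 or more. Pde4d, a cyclic AMP phosphodiesterase gene of 1301.8 kb, held the most, with 9 members of scores 4 to 12 among 21 regions at 0.1 µM, beside 9 regions at 0.5 µM and 18 at 1 µM. Psd3, which activates ARF6, and A830018L16Rik held 5 each, among 8 and 6 regions at 0.1 µM. Klf12, a repressor of the KLF family, held 4 members, which were its only regions at 0.1 µM, and it had 0 regions at 0.5 and 1 µM. Mbnl1, a splicing regulator, held 4 of 6, with 0 at 0.5 µM and 3 at 1 µM. Nfasc, a neural adhesion gene, held 4 members among 7 regions at 0.1 µM, while it had 19 regions at 0.5 µM and 7 at 1 µM. Stard13 held 4 among 25 and Macrod2 4 among 12.

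Most members had no other member nearby. With a gap of at most 50 kb between neighbours, 1944 of the 2599 members were alone, and 655 (25.2%) fell into 291 groups, of which 233 were pairs and 3 had 5 members. One group of 5 ran over 89.5 kb at Bcas1 (chr2:170282583-170372102, scores 6 to 15) in a stretch that held 10, 10 and 9 regions at 0.1, 0.5 and 1 µM. Another began at the start of Mki67, the gene of the proliferation marker Ki-67, and ran over 98.0 kb (chr7:135715858-135813885, scores 5 to 12), with 6, 2 and 1 regions in order of dose. The third lay inside A830018L16Rik over 52.0 kb (chr1:11738931-11790892), again with 6, 2 and 1. Groups of 4 lay at Bace2 and Fam3b (scores 6 to 17), where 0.1 µM had 5 regions and each other dose 1, and around Faah and Nsun4 (scores 4 to 15).

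Chromosomes differed in how much of their 0.1 µM list was unique. The share was highest on chromosome 14, with 89 of 279 regions (31.9%, 26.5 to 37.7), and on the X chromosome, with 72 of 243 (29.6%, 24.0 to 35.8). It was lowest on chromosome 17, with 118 of 714 (16.5%, 13.9 to 19.5), and on chromosome 18 (17.8%, 14.8 to 21). Chromosomes with few listed regions per Mb had higher shares: over the 19 chromosomes Pearson's r was -0.74 and Spearman's rank correlation -0.69, as a description, since both measures share the count of listed regions. In number, chromosomes 1, 3 and 2 held the most members (327, 247 and 226). Chromosome 17 held 4.54% of the members, 14.6% of the regions only at 0.5 µM and 5.89% of those only at 1 µM.

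**Figure D5:**
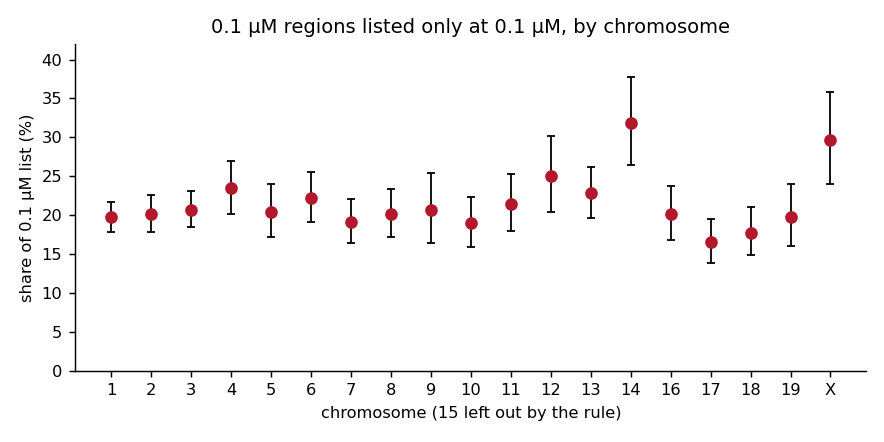
Points give, for each chromosome, the percentage of 0.1 µM regions that were listed only at 0.1 µM, with exact binomial 95% intervals. Chromosomes 14 (31.9%) and X (29.6%) have the highest points, and chromosome 17 (16.5%) the lowest.

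Listed genes had members at their ends about as often as other genes. Of 455 genes in 17 lists of stress, liver, chromatin, metabolic and other cell type genes, 13 had one (2.86%), close to the 2.45% of all genes. By list, members stood at 0 of 23 metal and heat shock response genes, 0 of 30 NRF2 and oxidative stress genes, 0 of 22 AHR and xenobiotic metabolism genes and 0 of 34 hepatocyte identity genes, although 8, 7, 0 and 4 of these had some region at 0.1 µM at an end. At the background share fewer than 1 gene would be found in each of these lists, so a count of 0 sets none of them apart. No member stood at an end of 22 immune cell, 22 stromal and endothelial, 29 Hox or 31 adhesion genes.

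The AP-1 and immediate early genes had 1 of 23 with a member, Fos, the partner of JUN in AP-1. Fos had 2: one of 343 bp on its start (chr12:85473626-85473968, score 7) and one of 267 bp past its other end (chr12:85477922-85478188, score 5), with no region of another dose at either end. Among p53 and DNA damage genes 2 of 34 had one. At Chek1, the checkpoint kinase gene (score 14), a 1 µM region of score 6 was also present. The Gadd45a member (score 9) lay at the start of the non-coding gene E230016M11Rik, and Gadd45a had other regions of scores 42 and 55 at 0.5 and 1 µM.

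Of 30 cell cycle genes, Mki67 (score 6) and Ccnd1, the cyclin D1 gene (score 6), had a member. The Ccnd1 member lay just outside that gene and inside LTO1, and the nearest start in the promoter table was that of LTO1, 14616 bp away. Mki67 also had a 0.5 µM region of score 10 at an end. Ccnd1 had none of another dose, but LTO1 had regions of scores 4 and 9 at 0.5 and 1 µM at an end. In the CTCF, cohesin and condensin list 1 of 20 had one, the condensin gene Ncapd2 (score 8), which also had a 1 µM region of score 6. Of 38 chromatin remodelling and modification genes, Smarca4, the BRG1 ATPase of SWI/SNF (score 5), and Suz12, a subunit of PRC2 (score 7), each had a member on the start and no other dose. Rps4x (score 12) and Rps9 (score 10) among 27 ribosomal protein genes, Gpi1 (score 7) among 24 glycolysis genes and Sdhb (score 5) among 24 respiratory chain genes had a member and no region of another dose at an end. So did Snap25 (score 12), a synaptic gene and 1 of 22 neuronal markers, where the member lay 6 bp from the start of the non-coding gene Gm32659.

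Of 386 zinc finger genes named Zfp with a number, 140 had any region at 0.1 µM at an end, where 19.1% of all genes had one, and a member was found in 2 (0.518%), Zfp326 and Zfp933, against 8 with a region only at 0.5 µM and 18 with one only at 1 µM. Over all genes the shares with a region only at 0.1, 0.5 and 1 µM were 2.45%, 2.2% and 4.67%, and these differences were not tested. The Zfp93 member lay at a RefSeq start inside that gene model and is not among the 2. Solute carrier genes had 10 of 358 (2.79%), cytochrome P450 genes 3 of 89 (Cyp24a1, Cyp4b1 and Cyp7b1), proteasome subunits 2 of 40 (Psmc5 and Psmd6) and mitochondrial ribosomal protein genes 1 of 77 (Mrpl51), of which 33 had a region at 0.1 µM. Olfactory receptor genes had 2 of 1101 and vomeronasal receptor genes 0 of 353, and 4 and 1 of these had any region at 0.1 µM.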

How the data were processed

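ATAC-seq regions of Hepa-1c1c7 cells came as 1 deposited list per treated dose, each with a deposited score per region. The submitters' processing notes name Bowtie2, Picard, MACS2 and mm10, with no parameters. The names of the deposited lists carry a q tag and the words filtered, BL and unique, which the sources used here do not explain. Beyond these tags, how scores were scaled, thresholds set, control reads used, Tn5 cuts shifted and libraries pooled was not given there. Members and gene lists were chosen with earlier results of these data known. Regions were merged where they shared at least 1 bp, and touching regions stayed apart. Midpoints were set against 21631 protein-coding genes of GRCm38.p6 (within 1 kb of an end, inside, between), and regions against 31683 RefSeq promoters off chromosome 15, without chromosome 18. Genes were counted where any base of a region lay within 1 kb of an end. Named regions were those with the highest score, overall and by location, the widest, the most isolated, the densest genes and groups, and every listed gene with a member. The most isolated, the distances to starts and the shares beyond 1 kb were added after the data were seen. Python 3.11.15, pandas 2.3.3 and scipy 1.17.1 (exact binomial intervals) were used, and merging and location were tested on simulated lists. Library depth is unknown, and no test was made.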

Additional observations from a re-analysis of the deposited data

How the results depend on the processing

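No paired analysis was possible because each dose has 1 list for both libraries, and no library could be left out. The number of members was within 1.5 times of 2599 under most settings, and became 691 when 0.1 µM regions needed a score of 10, 4574 when the other lists did, and 5642 without the 1 µM list. The share at gene ends (17.2%) stayed below 24% throughout. Apart from the limit of 1000 bp, the other dose classes were not recomputed under these settings. Whether the members' share stayed below theirs was therefore not checked there. It was 23.3% with a reciprocal overlap of 50%, 13.5% and 13.4% when a region within 500 or 1000 bp counted as shared, 14.0% with a score of 10 in the 0.1 µM list, 21.2% with that score in the others, 20.8% without the 1 µM list, 14.9% with chromosome 15, 11.9% and 22.9% with a gene end of 500 and 2500 bp, and 22.0% with all genes of the table. The share between genes (47.9%) was in that order 43.4%, 50.9%, 51.6%, 49.5%, 44.5%, 44.2%, 51.0%, 49.2%, 45.4% and 38.1%. The share inside genes moved beyond its interval to 38.8% and 31.6% with the 2 other gene ends and to 39.9% with all genes. Genes with a member at an end (510) became 937 with a reciprocal overlap of 50%, 332 when regions within 1000 bp counted as shared, 119 and 1103 with the score limits, and 1309 without the 1 µM list. Promoters overlapped by at least 150 bp numbered 230, of which 64.8% held a GC box. The lists give no counts, so a region missing from a list is not shown to be closed, and the part of list length or depth in these shares was not tested.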

Other observations

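Chromosome 15, which the rule left out, held another 560 regions listed only at 0.1 µM, or 29.7% (27.7 to 31.9) of its 0.1 µM regions. Their median width was 232 bp and their median score 6. Gene ends held 4.29% (2.76 to 6.31) of them, the inside of genes 30.2% and the space between genes 65.5% (61.4 to 69.5), so on this chromosome they lay between genes more often than the 47.9% found elsewhere.

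Non-coding genes accounted for part of the members between protein-coding genes: 190 of the 1245 (15.3%, 13.3 to 17.4) had their midpoint inside a lncRNA gene and 12 (0.964%) inside a pseudogene. The hairpins of 2 microRNAs were overlapped by members. None of these counts was set beside other dose classes, so they do not set the members apart. One hairpin belonged to Mir484 (chr16:14159626-14159692), reached by a member at the start of Marf1, a regulator of RNA in oocytes (chr16:14159345-14159633, score 16), and Marf1 also had a 1 µM region of score 10 at an end. The other was that of Mir713 (chr13:62760739-62760846), under a member of score 10.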
